A study of Mus musculus with 8 samples.

Results

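The let-7 family was followed as 9 miRNAs, namely mmu-let-7a-5p, mmu-let-7b-5p, mmu-let-7c-5p, mmu-let-7d-5p, mmu-let-7e-5p, mmu-let-7f-5p, mmu-let-7g-5p, mmu-let-7i-5p and mmu-miR-98-5p (the mouse prefix is dropped from here on), chosen by name from the 422 miRNAs of the count table. The small RNA libraries were made from hippocampi of 4 B6 and 4 BTBR animals, all adult males of 12 weeks from the animal cohort called pool 2, with 1 library per mouse and no treatment. B6 is C57BL/6J, the inbred reference strain, and BTBR is BTBR T+ Itpr3tf/J, an inbred strain with autism-like behaviour that is also known to lack a corpus callosum. The strains have been bred separately and differ at many loci, so a difference between them cannot be tied to any 1 allele. The question put to the libraries was whether the hippocampal level of a miRNA differs between the strains.

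let-7 miRNAs are among the most conserved miRNAs of animals. They accumulate as cells leave the stem or progenitor state, and they are abundant in adult neurons. A mature miRNA guides an Argonaute protein to messenger RNAs that pair with its seed, which is bases 2 to 8 counted from the 5′ end, and the family members share this seed. In stem and progenitor cells the proteins LIN28A and LIN28B hold back the maturation of many let-7 precursors by binding their terminal loop.

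The mature sequences are shown because they explain both what the members share and how few bases tell their reads apart. They are written 5′ to 3′ from RefSeq (GRCm38.p6), with the seed in capitals.
let-7a-5p: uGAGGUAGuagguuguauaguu
let-7b-5p: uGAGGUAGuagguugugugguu
let-7c-5p: uGAGGUAGuagguuguaugguu
let-7d-5p: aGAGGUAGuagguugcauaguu
let-7e-5p: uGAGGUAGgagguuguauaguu
let-7f-5p: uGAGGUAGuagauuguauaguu
let-7g-5p: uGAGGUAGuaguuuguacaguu
let-7i-5p: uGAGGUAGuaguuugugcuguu
miR-98-5p: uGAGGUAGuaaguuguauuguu

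All 9 are 22 bases long and carry the seed GAGGUAG, and outside it they diverge at a few positions. With positions counted from 1 at the 5′ end and let-7a-5p as the reference, let-7c-5p differs by A19G, let-7e-5p by U9G and let-7f-5p by G12A. let-7b-5p differs from let-7a-5p by A17G and A19G, let-7d-5p by U1A and U16C, let-7g-5p by G12U and U18C, and miR-98-5p by G11A and A19U. The member farthest from let-7a-5p is let-7i-5p, with G12U, A17G, U18C and A19U. Of the 36 pairs of members, 4 differ by 1 base and 10 by 2 bases, so a sequencing error, a change at a read's 3′ end or a trimmed read can move a count from one member to another. A level of 1 member may therefore hold an unknown part of its nearest relatives, which was not tested. How the counting settled reads that match more than 1 member is not given in the sources used here.

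The members come from 12 hairpins of the mouse genome (GRCm38.p6), several of them in clusters. let-7d, let-7f-1 and let-7a-1 lie together in an exon of the noncoding RNA 6720427I07Rik, at chr13:48536012-48536114, chr13:48537829-48537917 and chr13:48538179-48538272 on the minus strand. let-7c-2 at chr15:85706603-85706697 and let-7b at chr15:85707319-85707403 are exonic in Lncppara on the plus strand. let-7c-1, at chr16:77599657-77599750 on the plus strand, is in an intron of Mir99ahg, 657 bases from the miR-99a hairpin. let-7e at chr17:17830352-17830444, also on the plus strand, is in an intron of Spaca6, 368 bases from miR-125a. let-7a-2, at chr9:41536716-41536811 on the plus strand, is in an intron of 3110039I08Rik and lies 5212 bases from miR-100. let-7g is in an intron of Wdr82 at chr9:106178840-106178927 on the plus strand, far from the let-7a-2 hairpin of the same chromosome and with no other let-7 hairpin beside it. let-7f-2 at chrX:151912346-151912428 and miR-98 at chrX:151913214-151913321 share an intron of Huwe1, and let-7i at chr10:122985640-122985724, on the minus strand, overlaps an exon of the pseudogene D630033A02Rik. Because let-7a, let-7c and let-7f each come from 2 hairpins with the same 5p sequence, their counts cannot be divided by locus. The letters GGAG, as in the loop motif to which LIN28 proteins bind, were found on the transcribed strand in 9 of the 12 hairpins and in 447 of 1005 mouse hairpins (44.5%). The hairpins without it were those of let-7b, let-7c-2 and miR-98, and binding was not measured.

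The libraries held between 2247482 and 7904990 counted reads, a 3.52-fold range, with 5078301 to 5792967 in B6 mice. BTBR replicate 2 was the shallowest and BTBR replicate 4 the deepest. All 422 miRNAs had at least 1 read in every library. The 5 brain miRNAs listed as a check of the tissue (miR-124-3p, miR-9-5p, miR-128-3p, miR-138-5p and miR-132-3p) were all present and summed to 51640 to 80541 CPM (read counts scaled to a common library size) in B6 and 60191 to 72878 CPM in BTBR libraries. The 8 measured choroid plexus miRNAs of 10 listed summed to 39776, 16348, 6399 and 5203 CPM in B6 replicates 1 to 4 and to 5243 to 9543 CPM in BTBR. Their log2 fold changes of BTBR over B6 were below 0 for 7 of 8, with a median of -1.12 and 0 called by edgeR at an adjusted p under 0.1 (4 at an unadjusted p under 0.05), where over all 422 miRNAs 1.66% were called and 10.9% had an unadjusted p under 0.05. The 5 red blood cell miRNAs all had log2 fold changes above 0 (median 1.19), with 1 called by edgeR and 4 at an unadjusted p under 0.05. They summed to 788, 1631, 561 and 573 CPM in B6 replicates 1 to 4 and to 942, 2582, 2608 and 2023 CPM in BTBR replicates 1 to 4. Equal counts were not merged in this list, and those of miR-486b-5p repeat those of miR-486a-5p in every library. The part of these cell types in the let-7 values, and that of depth, was not tested.

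More than 4 in 10 counted reads of every library were let-7 family reads. The 9 members took 56.6%, 48.5%, 59.9% and 57.5% of the counts in B6 replicates 1 to 4, and 52.9%, 59.8%, 50.2% and 52.8% in BTBR replicates 1 to 4. The mean share was 55.6% ± 4.96 (SD, n = 4) in B6 and 53.9% ± 4.10 (SD, n = 4) in BTBR, and the strains overlapped. Counting error is small against this spread, since the 95% Wilson interval of a family share was at most 0.0641 percentage points to either side. The counts carry no molecular identifiers, so these intervals cover counting error only. In bulk tissue, fewer cells of a type and less RNA per cell cannot be told apart.

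**Figure D1:**
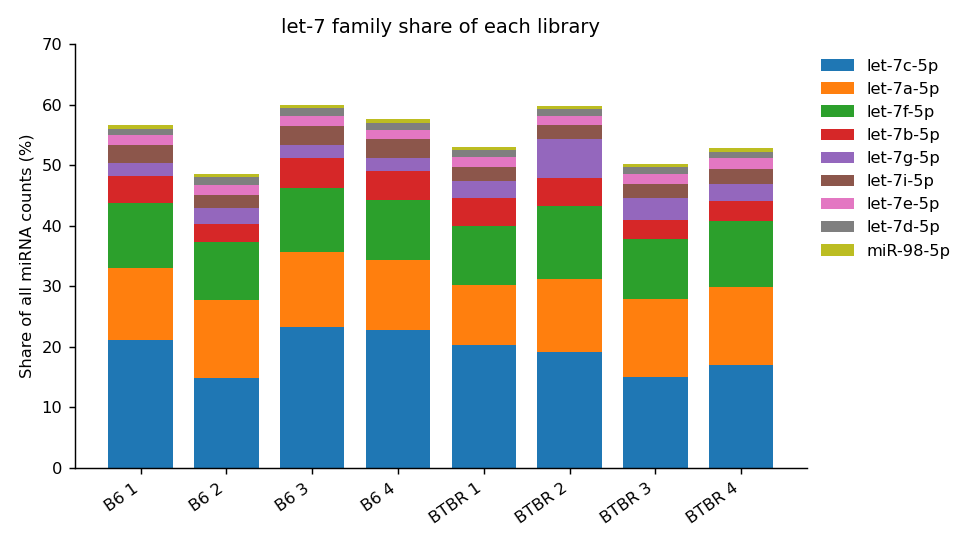
Share of all miRNA counts (%, y axis from 0) taken by each of the 9 members in each of the 8 libraries, stacked. The family reaches 48.5% to 59.9% of every library, and the let-7g-5p segment is thickest in BTBR replicate 2, at 6.42%.

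Grouped by seed, the let-7 seed was the most read of 292 distinct seeds in all 8 libraries. With the low-level relatives let-7k and miR-1961 added, which carry the same 7 bases, it held 48.7% to 60.2% of the counts. The seed UCAAGUA of miR-26a-5p and miR-26b-5p came next in every library, with 6.76% to 11.2%. By mean share the miR-181 seed ACAUUCA (3.77% to 8.11%), the seed CUUUGGU of the neuronal miR-9-5p (3.46% to 4.96%) and AGCUGCC of miR-22-3p (1.02% to 2.85%) came after it. The miR-181 and miR-9 seeds had rank 3 and 4, in the reverse order in BTBR replicate 2, and the miR-22 seed had rank 5 to 10. Seeds were read for the 367 of 422 miRNAs with a RefSeq sequence, which held 95.8% to 97.6% of the counts. The strains overlapped for all 5 of these seeds.

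Within the family the abundance was uneven. let-7a-5p, let-7b-5p, let-7c-5p and let-7f-5p together held 80.0% to 85.3% of family reads, and 5 or 6 members stood among the 10 most read miRNAs of each library. let-7c-5p had rank 1 and let-7a-5p rank 2 in every library. let-7f-5p had rank 3 or 4, let-7b-5p rank 6 to 8, let-7g-5p rank 4 to 10, let-7i-5p rank 8 to 11, let-7e-5p rank 11 to 14 and let-7d-5p rank 14 to 16. miR-98-5p, the only member outside the 20 most read, had rank 21 to 31. These ranks order reads and not molecules, since adapter ligation is known to favour some miRNA ends over others.

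The order of neighbours was stable in most places and changed in the middle of the family. let-7c-5p exceeded let-7a-5p, let-7a-5p exceeded let-7f-5p, and let-7f-5p exceeded let-7b-5p in 8 of 8 libraries, although the ranges of let-7a-5p and let-7f-5p over mice overlapped in both strains. let-7i-5p exceeded let-7e-5p, let-7e-5p exceeded let-7d-5p and let-7d-5p exceeded miR-98-5p in all 8 as well. let-7g-5p exceeded let-7i-5p in 1 of 4 B6 libraries and in 4 of 4 BTBR libraries. let-7b-5p exceeded let-7g-5p in 4 of 4 B6 libraries and in 2 of 4 BTBR libraries.

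**Figure D2:**
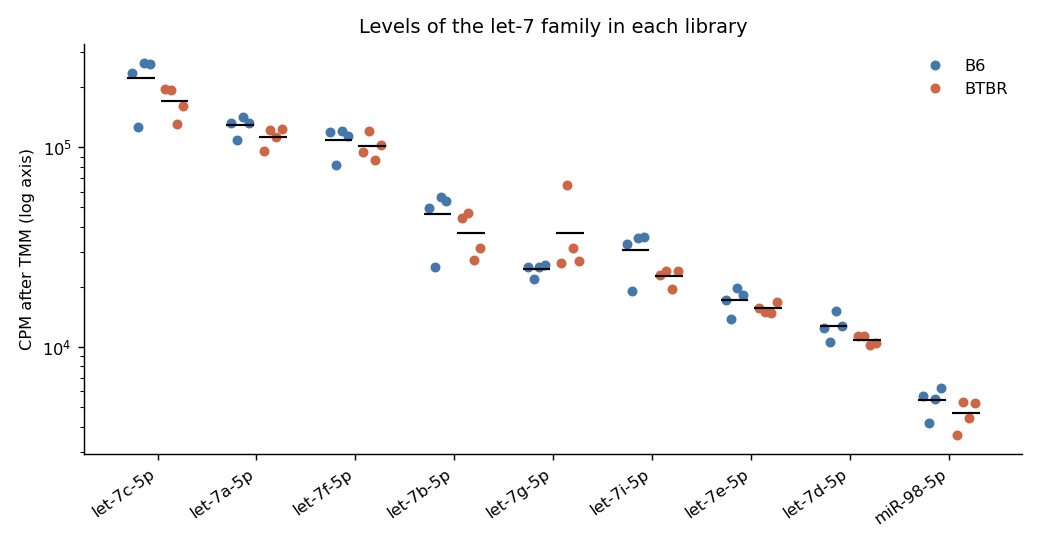
Level of each member in CPM after TMM normalization (log axis), with 4 B6 (blue) and 4 BTBR (orange) libraries as points, replicates 1 to 4 from left to right, and the group mean as a line. The groups overlap for every member except let-7g-5p, whose lowest BTBR value of 26419 lies above the highest B6 value of 25690.

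Strains were compared on CPM scaled by edgeR's TMM factors, with edgeR's quasi-likelihood test and Benjamini-Hochberg adjustment over all 422 miRNAs at a threshold of 0.1. None of the 9 members passed (0 of 9 called), while 7 of 422 miRNAs did (1.66% called), 5 of them higher in BTBR (1.18%) and 2 lower (0.474%). At an unadjusted p under 0.05 the member count was 1, let-7g-5p, against 10.9% of all miRNAs. DESeq2's Wald test called 0 members and 21 of 422 miRNAs, with 0 members and 45 of 422 miRNAs at an unadjusted p under 0.05. By limma-voom 0 members and 6 of 422 miRNAs were called, with 0 members and 38 of 422 miRNAs at an unadjusted p under 0.05. The fitted log2 fold change of BTBR over B6 lay below 0 for 8 members and above 0 for 1, with a median of -0.22 against 0.02 over all 422 miRNAs. Scaled by library size only, 6 members lay below 0 and 3 above, with a median of -0.047 against 0.15, and relative to the family sum 5 lay below and 4 above, with a median of -0.0064 against 0.18. All members share the same 8 libraries and take over 4 in 10 of the reads, so their signs are not independent of each other. The members that moved above 0 under these scalings were let-7e-5p and let-7f-5p in both, and let-7a-5p relative to the family sum.

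let-7g-5p was the member whose strains did not overlap. Its level was 25039, 21940, 25194 and 25690 CPM in B6 replicates 1 to 4, and 26419, 64780, 31511 and 26947 CPM in BTBR replicates 1 to 4. Every BTBR library lay above every B6 library, but the gap between the lowest BTBR and the highest B6 value was only 730 CPM, and BTBR replicate 2 stood far above the rest. Among all miRNAs 14 of 422 (3.32%) were higher in BTBR without overlap and 6.64% did not overlap in either direction, so 1 of 9 members is to be read against that share. The means were 24466 ± 1707 CPM in B6 and 37414 ± 18387 CPM in BTBR (SD, n = 4 each), and the fitted log2 fold change was 0.61 (SE 0.28, 95% interval 0.0099 to 1.22), or 1.53-fold. edgeR's quasi-likelihood test gave p = 0.0469, or 0.451 after adjustment, and an exact two-sided permutation of the 8 mice (70 assignments) gave an unadjusted p = 0.0286, the smallest it can give. With 4 mice against 4, that permutation value follows from the lack of overlap and adds nothing to it. For the other 8 members the same exact permutation test gave an unadjusted p of 0.0857 to 0.571.

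The height of the let-7g-5p difference rested on BTBR replicate 2. That library, the shallowest, held 144303 let-7g-5p reads. The BTBR replicate 2 level was 2.29-fold the mean of the other 3 BTBR libraries, which was 28292 ± 2800 CPM (SD, n = 3) and 1.16-fold the B6 mean. With BTBR replicate 2 left out, a log2 fold change of 0.18 remained, at an adjusted p of 0.655 (edgeR quasi-likelihood test, Benjamini-Hochberg), and with each other library left out the value lay between 0.54 and 0.75. In the same library miR-99b-5p stood at 2812 CPM against 444 to 646 CPM in the other BTBR libraries, and miR-125a-5p at 17233 CPM against 7075 to 7727 CPM. let-7e-5p, encoded beside those 2, was at 15044 CPM there, within the range of the other BTBR libraries.

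**Figure D3:**
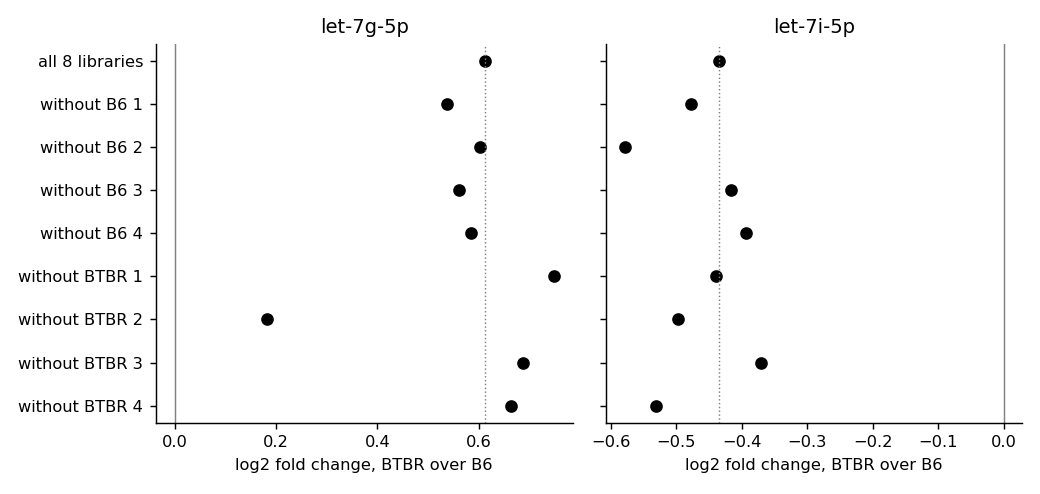
Fitted log2 fold change of BTBR over B6 for let-7g-5p (left) and let-7i-5p (right) with all 8 libraries and with each library left out, with 0 as a solid and the full value as a dotted line. let-7g-5p drops from 0.61 to 0.18 without BTBR replicate 2, and let-7i-5p moves from -0.43 to -0.58 without B6 replicate 2.

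let-7i-5p, which shares G12U and U18C with let-7g-5p, had the lowest fold change of the family. It stood at 32786, 19070, 35112 and 35564 CPM in B6 replicates 1 to 4 and at 22873, 24076, 19595 and 24117 CPM in BTBR replicates 1 to 4. Of the B6 libraries 3 were above every BTBR library and B6 replicate 2 was below all 4. The means of 30633 ± 7804 and 22665 ± 2127 CPM (SD, n = 4 each) gave a log2 fold change of -0.43 (SE 0.21, 95% interval -0.90 to 0.03, adjusted p = 0.494 by edgeR's quasi-likelihood test). Without B6 replicate 2 the value was -0.58 with an adjusted p of 0.0778 in the same edgeR test, past the threshold of 0.1, in a fit that called 13 miRNAs in all.

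let-7c-5p, the most read miRNA of the hippocampus here, varied widely among B6 mice. Its level was 234534, 126042, 265702 and 260475 CPM in B6 replicates 1 to 4 and 196039, 192835, 131197 and 160857 CPM in BTBR replicates 1 to 4. B6 replicate 2 was the lowest of all libraries while the other 3 B6 libraries were the highest. The means of 221688 ± 65205 and 170232 ± 30488 CPM (SD, n = 4 each) gave a log2 fold change of -0.38 (SE 0.24, 95% interval -0.91 to 0.15, adjusted p = 0.617 by edgeR's quasi-likelihood test).

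let-7b-5p, the cluster neighbour of let-7c-2, followed the same order of libraries closely. It stood at 49659, 25323, 56715 and 53920 CPM in B6 replicates 1 to 4 and at 44289, 46828, 27158 and 31215 CPM in BTBR replicates 1 to 4, with the low values in B6 replicate 2 and BTBR replicates 3 and 4. Its log2 fold change was -0.31 (SE 0.27, 95% interval -0.90 to 0.28, adjusted p = 0.713 by edgeR's quasi-likelihood test).

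let-7a-5p and let-7f-5p, each made from 2 hairpins of which one pair is clustered on chromosome 13, were steadier. let-7a-5p had 132019, 109122, 142160 and 133144 CPM in B6 replicates 1 to 4 and 95463, 122202, 112111 and 123180 CPM in BTBR replicates 1 to 4. let-7f-5p had 119227, 81836, 120605 and 113966 CPM in B6 and 94350, 120677, 86370 and 103126 CPM in BTBR, in the same order of replicates. The strains overlapped for both. On the TMM-scaled CPM, B6 replicate 2 was the lowest B6 library here and for all 9 members, and it had the lowest family share and the highest TMM factor (1.18). As a share of its own library it was instead the highest B6 library for let-7a-5p (12.8%) and let-7g-5p (2.58%). The log2 fold changes were -0.19 (SE 0.16, 95% interval -0.55 to 0.17) and -0.11 (SE 0.18, 95% interval -0.51 to 0.30), with adjusted p of 0.713 and 0.865 by edgeR's quasi-likelihood test.

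The less read members had narrow intervals too. let-7d-5p, from the chromosome 13 cluster, stood at 12484, 10592, 15125 and 12748 CPM in B6 replicates 1 to 4 and at 11337, 11329, 10232 and 10476 CPM in BTBR replicates 1 to 4, with a log2 fold change of -0.23 (SE 0.17). let-7e-5p stood at 17244, 13894, 19654 and 18247 CPM in B6 and at 15767, 15044, 14837 and 16872 CPM in BTBR, with a log2 fold change of -0.14 (SE 0.17). miR-98-5p, the let-7 miRNA that carries its own name, stood at 5693, 4168, 5495 and 6260 CPM in B6 and at 3627, 5297, 4423 and 5274 CPM in BTBR, with a log2 fold change of -0.22 (SE 0.20). The strains overlapped for all 3, and their adjusted p by edgeR's quasi-likelihood test were 0.655, 0.787 and 0.717.

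**Figure D4:**
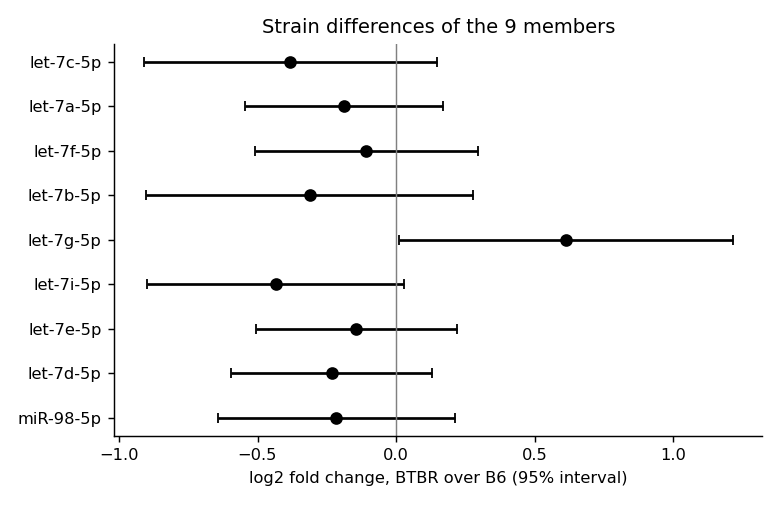
Fitted log2 fold change of BTBR over B6 for the 9 members (points) with 95% intervals (bars), in order of mean level. The intervals of 8 members include 0, and that of let-7g-5p runs from 0.0099 to 1.22 before any adjustment for the 422 miRNAs tested.

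The make-up of the family, which does not depend on how libraries are scaled, was compared next. let-7g-5p took 3.98%, 5.33%, 3.67% and 3.89% of family reads in B6 replicates 1 to 4 and 5.18%, 10.7%, 7.20% and 5.37% in BTBR replicates 1 to 4. The mean was 4.22% ± 0.749 in B6 and 7.12% ± 2.58 in BTBR (SD, n = 4 each), and the strains overlapped through B6 replicate 2 and BTBR replicate 1. The difference of 2.90 percentage points was 1.70 without BTBR replicate 2. let-7c-5p took 36.5% ± 4.06 in B6 and 33.1% ± 3.67 in BTBR, let-7a-5p 22.1% ± 2.95 and 22.3% ± 3.32, let-7f-5p 18.4% ± 1.21 and 19.7% ± 0.868, and let-7b-5p 7.62% ± 0.996 and 7.22% ± 1.22. The shares of let-7i-5p were 5.09% ± 0.326 and 4.44% ± 0.335, of let-7e-5p 2.94% ± 0.296 and 3.08% ± 0.416, of let-7d-5p 2.17% ± 0.290 and 2.13% ± 0.198, and of miR-98-5p 0.917% ± 0.0885 and 0.913% ± 0.153. The strains overlapped for the share of each of the 9 members (0 of 9), while 15 of 422 miRNAs (3.55%) did not overlap when divided by the family sum.

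With the family sum as the library size in the edgeR fit, so that each value is relative to the family, let-7g-5p had a log2 fold change of 0.76 (SE 0.24, adjusted p = 0.291 by the quasi-likelihood test). Against the sum of the other 8 members it was 0.81 (SE 0.25, adjusted p = 0.260), also by edgeR's quasi-likelihood test. None of the 9 members was called relative to the family sum, where 3 of 422 miRNAs were (0.711%). That fit moved with its libraries: without B6 replicate 2 the let-7g-5p value was 0.89 (adjusted p = 0.0729, with 51 miRNAs called), and without BTBR replicate 2 it was 0.49 (adjusted p = 0.417).

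Ratios of counts within a library show the same data without any scaling. let-7g-5p amounted to 0.177 to 0.201 of let-7a-5p in B6 libraries and to 0.219 to 0.530 in BTBR libraries, which did not overlap. Of the other 421 miRNAs divided by let-7a-5p, let-7g-5p included, 35 (8.31%) did not overlap, and the share of let-7g-5p in the family, above, did overlap. The ratio of let-7g-5p to let-7i-5p was 0.718 to 1.15 in B6 and 1.12 to 2.69 in BTBR, which overlapped. The ratio of let-7c-5p to let-7a-5p was 1.78, 1.16, 1.87 and 1.96 in B6 replicates 1 to 4 and 2.05, 1.58, 1.17 and 1.31 in BTBR replicates 1 to 4. That of let-7b-5p to let-7a-5p was 0.376, 0.232, 0.399 and 0.405 in B6 and 0.464, 0.383, 0.242 and 0.253 in BTBR. For both, B6 replicate 2 and BTBR replicates 3 and 4 were low together, so the spread ran within strains and not between them.

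**Figure D5:**
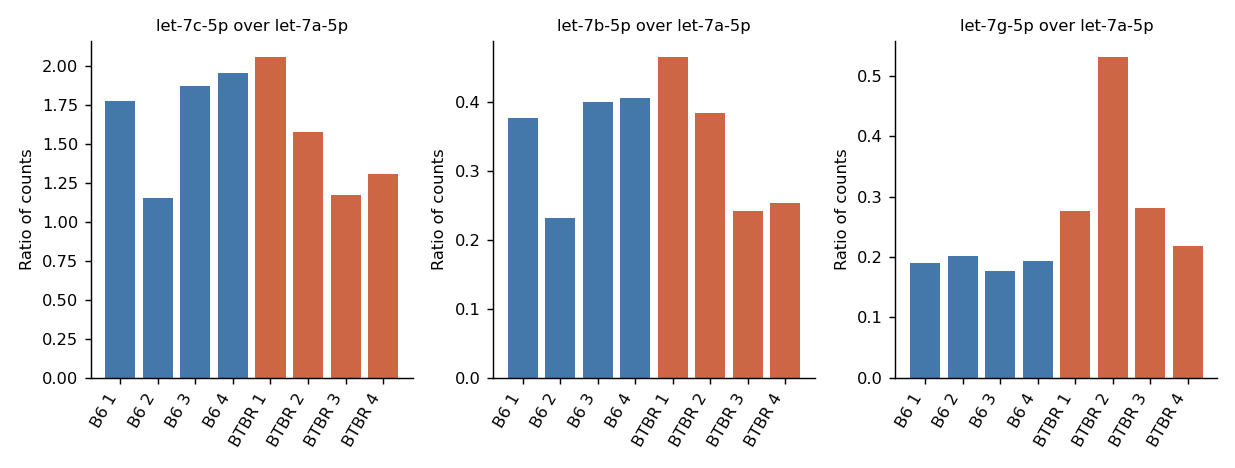
Ratio of counts of let-7c-5p, let-7b-5p and let-7g-5p to let-7a-5p in each library (bars from 0, B6 blue, BTBR orange). The let-7c-5p and let-7b-5p ratios are low in B6 replicate 2 and BTBR replicates 3 and 4, while all let-7g-5p ratios are higher in BTBR (0.219 to 0.530) than in B6 (0.177 to 0.201).

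How the members moved together over the 8 libraries is given as a description, on log2(CPM + 0.5), since all points share the same libraries and scaling. let-7b-5p and let-7c-5p were closest, with Pearson's r of 0.98 and Spearman's rho of 0.98 (n = 8). They differ by G17A, taking let-7b-5p as the reference, and share the chromosome 15 cluster. Of the chromosome 13 cluster, let-7a-5p and let-7d-5p had r = 0.69, let-7d-5p and let-7f-5p 0.71, and let-7a-5p and let-7f-5p 0.76. let-7e-5p and let-7i-5p, which lie on different chromosomes, had r = 0.92. let-7c-5p and let-7i-5p had r = 0.95 and rho = 0.88, and let-7a-5p and miR-98-5p had r = 0.93 and rho = 0.90. miR-98-5p and let-7f-5p, of which let-7f-2 lies beside miR-98, had r = 0.79 and rho = 0.69. let-7g-5p had r between -0.28 and 0.35 with the other members.

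Among the 153 miRNAs outside the family with at least 100 CPM on average, those most like let-7g-5p over the 8 libraries were miR-185-5p (r = 0.98, rho = 0.79), miR-21c (r = 0.96, rho = 0.69) and miR-21b (r = 0.94, rho = 0.69). All 3 were highest in BTBR replicate 2, and without that library and BTBR replicate 3 the r values were 0.75, 0.77 and 0.28. Most like the summed family were miR-103-3p (r = 0.98, rho = 0.98), miR-672-5p (r = 0.94, rho = 0.95) and miR-676-3p (r = 0.94, rho = 0.83). Without B6 replicate 2 and BTBR replicate 3 these r values were 0.96, 0.88 and 0.85.

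The passenger arms, the strands cut from the same hairpins and mostly discarded, were far less read. The 11 in the table held 10 distinct sets of counts, of which 0 were called (1.66% of all miRNAs were), with 3 log2 fold changes above 0, 7 below 0 and a median of -0.11. let-7d-3p was the most read, at 634 ± 62.4 CPM in B6 and 584 ± 123 CPM in BTBR (SD, n = 4 each), and let-7b-3p followed at 216 ± 15.4 and 192 ± 30.7 CPM. let-7d was also the hairpin with the most 3p reads for its 5p reads, 4.21% to 6.82% of both arms together, against at most 1.16% for let-7b, let-7e, let-7g, let-7i and miR-98. let-7a-1-3p and let-7c-2-3p had the same counts in every library, and RefSeq gives them the same sequence, shown here because it makes them 1 measurement.
let-7a-1-3p: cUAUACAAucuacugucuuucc
let-7c-2-3p: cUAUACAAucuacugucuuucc

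let-7g-3p, the other arm of the let-7g hairpin, gave 10, 23, 12 and 11 reads in B6 replicates 1 to 4 and 18, 1, 6 and 4 reads in BTBR replicates 1 to 4. BTBR replicate 2, the shallowest library and the one with the highest let-7g-5p level, had the lowest let-7g-3p count. Its let-7g-3p level of 0.449 CPM was close to the 0.481 CPM of BTBR replicate 4. The log2 fold change of -0.76 (SE 0.67, adjusted p = 0.714 by edgeR's quasi-likelihood test) is not distinguishable from 0 at so few reads.

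let-7j, let-7k and miR-1961 are close in sequence to the family and are counted apart from it. They are shown because 1 base separates let-7j and let-7k from a member over the length compared.
let-7j: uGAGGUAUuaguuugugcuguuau
let-7k: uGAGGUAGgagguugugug
miR-1961: uGAGGUAGuaguuagaa

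let-7j differs from let-7i-5p by G8U inside the seed, and let-7k from let-7b-5p by U9G over its 19 bases. let-7k had 4.91% to 8.04% as many reads as let-7b-5p, at 1993 to 3823 CPM, and a log2 fold change of -0.45 (SE 0.23, adjusted p = 0.521 by edgeR's quasi-likelihood test). let-7j stood at 623 to 1147 CPM, highest in BTBR replicate 2, with 0.15 (SE 0.22, adjusted p = 0.822 by the same test). With 1 library left out the let-7j value ran from -0.083 to 0.25. Reads of the abundant members with a miscalled base could be counted on both, which was not tested. miR-1961, named after its seed match had been seen, has 17 bases, differs from let-7g-5p by U14A and U16A and had 1 to 16 reads per library.

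The miR-99, miR-100 and miR-125 miRNAs lie in clusters with let-7a-2, let-7c-1 and let-7e, an arrangement conserved in many animals. Of 11 listed arms 9 were measured, and 1 was called, miR-100-5p, lower in BTBR (0.474% of all miRNAs were called lower). It stood at 439, 611, 386 and 313 CPM in B6 replicates 1 to 4 and at 179, 211, 214 and 196 CPM in BTBR replicates 1 to 4, without overlap. The log2 fold change was -1.13 (SE 0.23, adjusted p = 0.0426 by edgeR's quasi-likelihood test), while let-7a-5p, which also comes from the chromosome 13 cluster, had -0.19. The miR-100-5p call held in 14 of 20 alternatives and was lost without BTBR replicate 1, 3 or 4 (adjusted p = 0.125, 0.133 and 0.123 by the same edgeR test). It was also lost by library size only (0.215), relative to the family sum (0.294) and with the replicate number as a block (0.134). In the fits that lost it the log2 fold change was -1.17 to -1.02. The other 8 measured arms, 5 of them above 0, did not pass, and the median of the 9 was 0.06.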

How the data were processed

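Total RNA came from hippocampal tissue punched from brain slices of 4 B6 and 4 BTBR mice, with each mouse extracted separately. Per the labels and methods, the authors made libraries with the Illumina TruSeq Small RNA kit, sequenced them on a NextSeq500, checked reads with FastQC 0.11.2 and mapped them with sRNAbench (Bowtie) to GRCm38 and miRBase version 21. They deposited whole-number counts of 422 miRNAs, not normalized. These hold no molecular identifiers, and reads lacking a match within an annotated miRNA are not in them, which can affect members that differ by 1 base. Replicates are separate mice, and no pair of libraries of a strain agreed within sampling noise.

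R 4.3.3 served for the fits (edgeR 4.0.16, with DESeq2 1.42.0 and limma 3.58.1 as alternatives), and Python 3.11.15 with matplotlib 3.10.9 for sequences and plots. Libraries were scaled by TMM (factors 0.872 to 1.18, common dispersion 0.137) and the strain term, with no covariate, was tested by quasi-likelihood in edgeR, with Benjamini-Hochberg adjustment over 422 miRNAs at the study's threshold of 0.1. No miRNA of the count table was filtered out, and that table held only miRNAs with at least 1 read in every library. For single members, an exact two-sided permutation of the mice (70 assignments) was run on log2(CPM + 0.5). Shares have 95% Wilson intervals. Alternatives were other scalings, tests, dispersions, a filter on low counts (10 CPM in 4 libraries), identical miRNAs kept once, a threshold of 0.05, the replicate number as a block, and each library left out.

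The members and lists (all 9 members, let-7j and let-7k, passenger arms, the cluster partners, the 5 most read seeds, the 3 miRNAs most like let-7g-5p and most like the family sum, and cell type markers) were chosen with earlier results of these data known. Of the marker lists not described in the report, the skeletal muscle list summed to 594 to 983 CPM in B6 and 786 to 1204 CPM in BTBR, the vessel list to 8863 to 13365 and 6831 to 10686 CPM, and the immune list, with 3 of 4 measured, to 323 to 408 and 324 to 535 CPM. Of all these lists' miRNAs only miR-451a, of the red blood cell list, and the cluster partner miR-100-5p passed the threshold.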

Additional observations from a re-analysis of the deposited data

Results flagged for a closer look

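Dixon's test at 95% was applied to 42 groups of 4 libraries, of which chance picks out about 1 in 20, and 3 were picked out. let-7g-5p in BTBR replicate 2 stood at 64780 CPM, far above the other 3 BTBR libraries (ratio of gap to range 0.867). let-7i-5p in B6 replicate 2 stood at 19070 CPM, far below the other 3 B6 libraries (0.832). let-7a-5p in B6 replicate 2 made up 26.5% of family reads, above each of the other 3 B6 libraries (0.869).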

How the results depend on the processing

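Of 180 member values under 20 alternatives each, 174 kept their direction and side of the threshold, 1 passed it and 5 changed sign. The last were let-7a-5p at 0.012 relative to the family sum, let-7e-5p at 0.024 by library size only and 0.071 relative to the family sum, and let-7f-5p at 0.058 and 0.097 in those fits, in which the median over all miRNAs was 0.15 and 0.18 against 0.02. The cause was not tested. With 1 library left out the number of members called ran from 0 to 1 (let-7i-5p at -0.58 without B6 replicate 2, adjusted p = 0.0778 by edgeR) and was 0 in all other planned fits. let-7g-5p was called only relative to the family sum without B6 replicate 2, at 0.89, an alternative chosen after seeing the data. Its adjusted p ran from 0.215 to 0.747 over the planned edgeR, DESeq2 and limma fits. That of let-7i-5p ran from 0.0778 to 0.722 with 1 library left out. In those fits the log2 fold change ran from -0.29 to -0.12 for let-7a-5p, -0.49 to -0.19 for let-7b-5p and -0.55 to -0.27 for let-7c-5p. For let-7d-5p it ran from -0.31 to -0.19, and for let-7e-5p from -0.24 to -0.12. The range was -0.23 to -0.038 for let-7f-5p and -0.35 to -0.11 for miR-98-5p.

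The number of all miRNAs called was 7, and 4 by library size only, 3 relative to the family sum, 21 by DESeq2's Wald test, 16 by edgeR's exact test, 4 at a threshold of 0.05 and 3 to 13 with 1 library left out. It was 3 with the replicate number as a block, where let-7g-5p had 0.50. Libraries of the same number did not deviate together (r from -0.15 to 0.05). The labels do not say what the number stands for, and these correlations cannot show whether mice of the same number shared a batch. The family share difference kept its sign throughout, at -1.71 percentage points between means, -4.19 between medians and -4.08 to -0.276 with 1 library left out. The number of members whose family share separated the strains was 0, and 0 to 2 with 1 library left out (let-7g-5p and let-7i-5p without B6 replicate 2, let-7g-5p without BTBR replicate 1, let-7i-5p without BTBR replicate 4). In those 3 sets of libraries 21.1%, 8.29% and 6.40% of all 422 miRNAs did not overlap when divided by the family sum. The call of miR-100-5p was lost in 6 of 20 alternatives, as given with its values.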
